A study of Caenorhabditis elegans with 22 samples.

Results

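The 10 genes described here encode enzymes that modify, cross-link or cut proteins of the nematode cuticle, chiefly its collagens, together with a predicted protease inhibitor and an enzyme that makes a sugar donor for the surface. They were taken by symbol from the deposited count table of 42048 genes, and all 10 were present and had enough counts to be tested. They are the prolyl 4-hydroxylase subunit genes dpy-18, phy-2 and pdi-2, the thioredoxin-like gene dpy-11, the cross-linking genes bli-3 and mlt-7, the processing genes bli-4, suro-1 and bli-5, and the sugar nucleotide gene glf-1. RNA came from whole N2 Caenorhabditis elegans, the wild-type laboratory strain, grown on E. coli OP50 at 20 °C and described as L3 larvae in the protocols and as L4 in the series title. A time zero group (4 libraries) was taken at the start. The other groups (3 libraries each) were held in S-basal, a salt buffer without food, for 1, 4 or 20 h with 0% ethanol (control) or 5% ethanol by volume, so every later group shares the loss of food and the move to liquid. The question set by the design is how ethanol changes transcript levels against the control of the same time.

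Cuticle collagens are made by the epidermis, folded in the endoplasmic reticulum and secreted. There prolyl 4-hydroxylase, built from the catalytic subunits DPY-18 and PHY-2 and the protein disulfide isomerase PDI-2, hydroxylates prolines so that the collagen triple helix is stable. Procollagens are then trimmed by secreted or membrane-bound proteases and joined outside the cell by tyrosine cross-links, which need hydrogen peroxide from the dual oxidase BLI-3 and the heme peroxidase MLT-7. In C. elegans these genes are used whenever a cuticle is built, in the late embryo and again before each molt. Loss of some of them gives short (Dpy), blistered (Bli) or otherwise misshapen animals.

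Library totals ran from 10908205 to 15302047 counts, and 15310 genes were tested. Levels are given as CPM, the count scaled to the library size with TMM factors, and differences as log2 fold changes ± SE from edgeR's quasi-likelihood test. A gene passed when its Benjamini-Hochberg adjusted p over all tested genes was under 0.05. The first component of the spread among group mates took up 41.4% of it, with its sign set by the oocyte and eggshell markers. Only positive scores were held to a limit, and negative scores reached -41.57 (control replicate 1 at 1 h). On the positive side 6 libraries had scores above 10. The highest was control replicate 1 at 20 h, with a score of 58.3 against -30.6 and -27.7 for the other two. The adult collagen gene col-19 was at 1742 to 2400 CPM and the summed oocyte and eggshell markers were at 2789 to 9142 CPM at time zero, although the protocols name larvae. The titles number the libraries of a group as biological replicates, without saying whether these were separate cultures, and p-values rest on the spread among them.

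Ethanol changed the genes in different directions at different times. After 1 h 2 of the 10 were higher than in the control (dpy-18 and pdi-2) and 0 were lower, where 6.67% of all tested genes were called (4.94% higher, 1.72% lower). After 4 h 4 were higher (dpy-18, suro-1, pdi-2 and dpy-11) and 2 were lower (mlt-7 and bli-4), where 30.5% of all tested genes were called (17.1% higher, 13.4% lower). After 20 h 1 was higher (pdi-2) and 8 were lower, where 53.2% of all tested genes were called (25% higher, 28.1% lower). The control and ethanol libraries did not overlap for 5, 7 and 8 of the 10 genes at 1, 4 and 20 h, and for 18.9%, 54.3% and 55.4% of all tested genes. The median log2 fold change of the 10 was 0.23, 0.66 and -1.33 at 1, 4 and 20 h, beside -0.01, 0.00 and -0.06 over all tested genes. Of the 4 genes higher at 4 h, dpy-18, dpy-11 and suro-1 were lower at 20 h, and pdi-2 was higher at both times.

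The ethanol effect was also compared between times. It was higher at 4 h than at 1 h for 3 genes (dpy-18, pdi-2 and suro-1). For mlt-7 it went from 0.51 ± 0.48 at 1 h, which did not pass, to -1.84 ± 0.49 at 4 h. Between these times 13.1% of all tested genes were called (6.74% higher, 6.4% lower). From 4 h to 20 h the ethanol effect fell for 7 and rose for 0, where 32.3% were called (15.4% higher, 16.9% lower). Between 1 h and 20 h it again fell for 7 and rose for 0, where 35.7% were called (15.5% higher, 20.2% lower). The call on mlt-7 between 1 h and 4 h was lost without control replicate 1 at 1 h (adjusted p = 0.0649), control replicate 2 at 4 h (0.0546), or ethanol replicate 2 (0.0517) or 3 (0.0658) at 4 h.

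**Figure D1:**
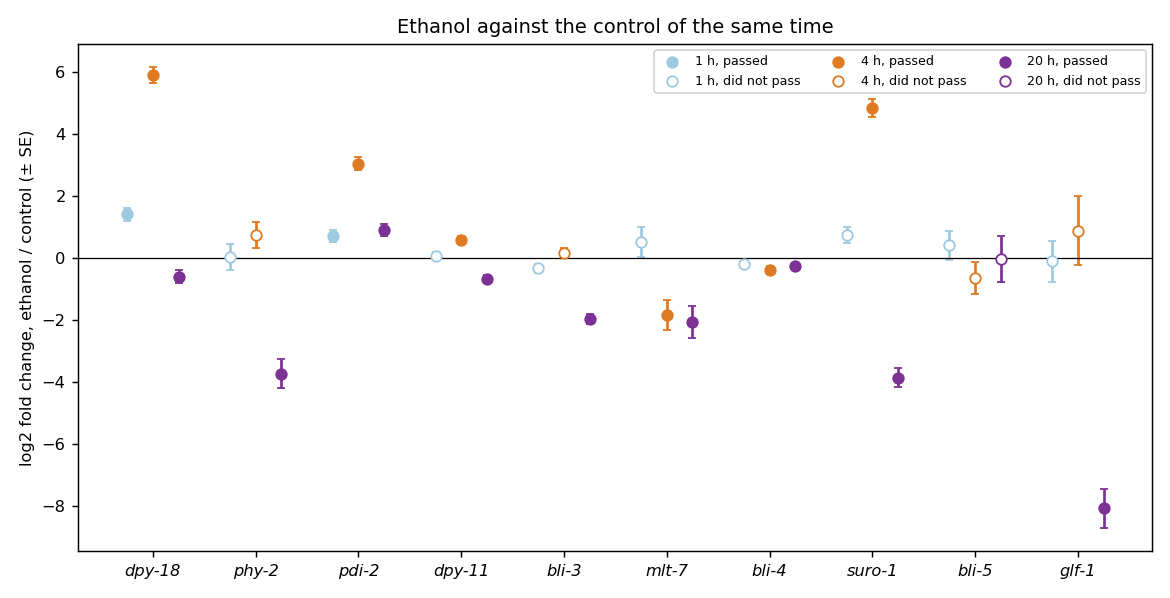
Log2 fold change of each gene in 5% ethanol against the 0% control of the same time, at 1 h (light blue), 4 h (orange) and 20 h (purple). Bars are ± SE from the edgeR fit, filled points passed the test and open points did not. dpy-18 and suro-1 lie highest at 4 h (5.90 and 4.83) and glf-1 lowest at 20 h (-8.08).

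The largest rise was that of dpy-18, which encodes a catalytic subunit of prolyl 4-hydroxylase. Its level at time zero was 37.2, 23.1, 29.0 and 25.7 CPM in replicates 1 to 4. In the 4 h controls it was at 9.32, 9.67 and 9.41 CPM, and in the 4 h ethanol libraries at 570.1, 560.4 and 563.1 CPM. The 3 ethanol libraries were thus far above all controls and above time zero, and they lay close to each other. The log2 fold change at 4 h was 5.90 ± 0.25, or 59.6-fold (adjusted p = 1.16e-12). In whole worms a change in the share of a tissue and a change of RNA per cell cannot be told apart. The summed level of 10 epidermal markers at 4 h was slightly lower in ethanol, at 381.8 to 407.1 CPM against 407.9 to 457.1 CPM. Of these 10 genes 1 was higher and 1 lower, and their median log2 fold change was 0.15. Over all tested genes 17.1% were called higher and 13.4% lower. Intestinal markers were also lower in sum (24090 to 38690 against 44450 to 49990 CPM, 2 of 7 genes higher and 2 lower) and sperm markers higher (127.3 to 149 against 92.2 to 97.98 CPM, 3 of 8 genes higher). Of 8 body wall muscle markers 0 passed at 4 h, and their sums overlapped. The part of these markers in the rise of dpy-18 was not tested.

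The rise of dpy-18 had begun at 1 h. The controls then stood at 14.3, 22.7 and 17.5 CPM and the ethanol libraries at 44.4, 50.9 and 47.9 CPM, without overlap (1.40 ± 0.21, adjusted p = 0.000161). The ethanol effect was larger at 4 h than at 1 h by 4.50 ± 0.31 on the log2 scale (adjusted p = 5.62e-09). By 20 h the ethanol libraries had fallen back to 44.5, 81.2 and 56.4 CPM, below the 4 h ethanol libraries. The 20 h controls had meanwhile risen to 113.1, 83.2 and 82.1 CPM, above time zero by 1.69 ± 0.19 (adjusted p = 1.86e-07). Ethanol was therefore lower than the control at 20 h (-0.61 ± 0.21, adjusted p = 0.0161), with the groups apart by less than 1 CPM at their nearest libraries. That call was lost when control replicate 1 (adjusted p = 0.0907), ethanol replicate 1 (0.163) or ethanol replicate 3 (0.0908) was left out, and when the fit held the 20 h libraries alone (0.0922). Over 33 alternatives its adjusted p ran from 0.00153 to 0.163. Against time zero dpy-18 stayed higher in ethanol at 20 h (1.08 ± 0.19, adjusted p = 8.41e-05).

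phy-2, the gene of the other catalytic subunit, followed another course. At time zero it was at 35.4, 47.5, 37.1 and 43.0 CPM. At 1 h the controls (22.1 to 36.8 CPM) and the ethanol libraries (23.2 to 33.5 CPM) overlapped, with a difference of 0.01 ± 0.42 (adjusted p = 0.995). At 4 h the controls were at 11.9, 14.7 and 15.7 CPM and the ethanol libraries at 23.8, 22.01 and 24.7 CPM. These did not overlap, but the difference of 0.73 ± 0.43 did not pass (adjusted p = 0.23), and ± 2 SE covered -0.13 to 1.60. It passed when the fit held the 4 h libraries alone (adjusted p = 0.000184), and without ethanol replicate 2 at 20 h, a library outside this comparison (0.0274). Over 33 alternatives its adjusted p ran from 0.000184 to 0.423.

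The main change of phy-2 came late and in the control. At 20 h the controls stood at 349, 751.3 and 700.5 CPM, above time zero by 3.88 ± 0.41 or 14.7-fold (adjusted p = 9.1e-08). The ethanol libraries were at 21.5, 94.1 and 19.6 CPM. All 3 were below all controls, and replicate 2 stood well above its mates. The log2 fold change was -3.74 ± 0.46, or 13.4-fold lower (adjusted p = 9.7e-07). Without ethanol replicate 2 it was -4.87, or 29.2-fold lower. Against time zero the ethanol libraries at 20 h differed by 0.14 ± 0.39 (adjusted p = 0.779), and by -0.99 without ethanol replicate 2 (adjusted p = 0.00457).

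**Figure D2:**
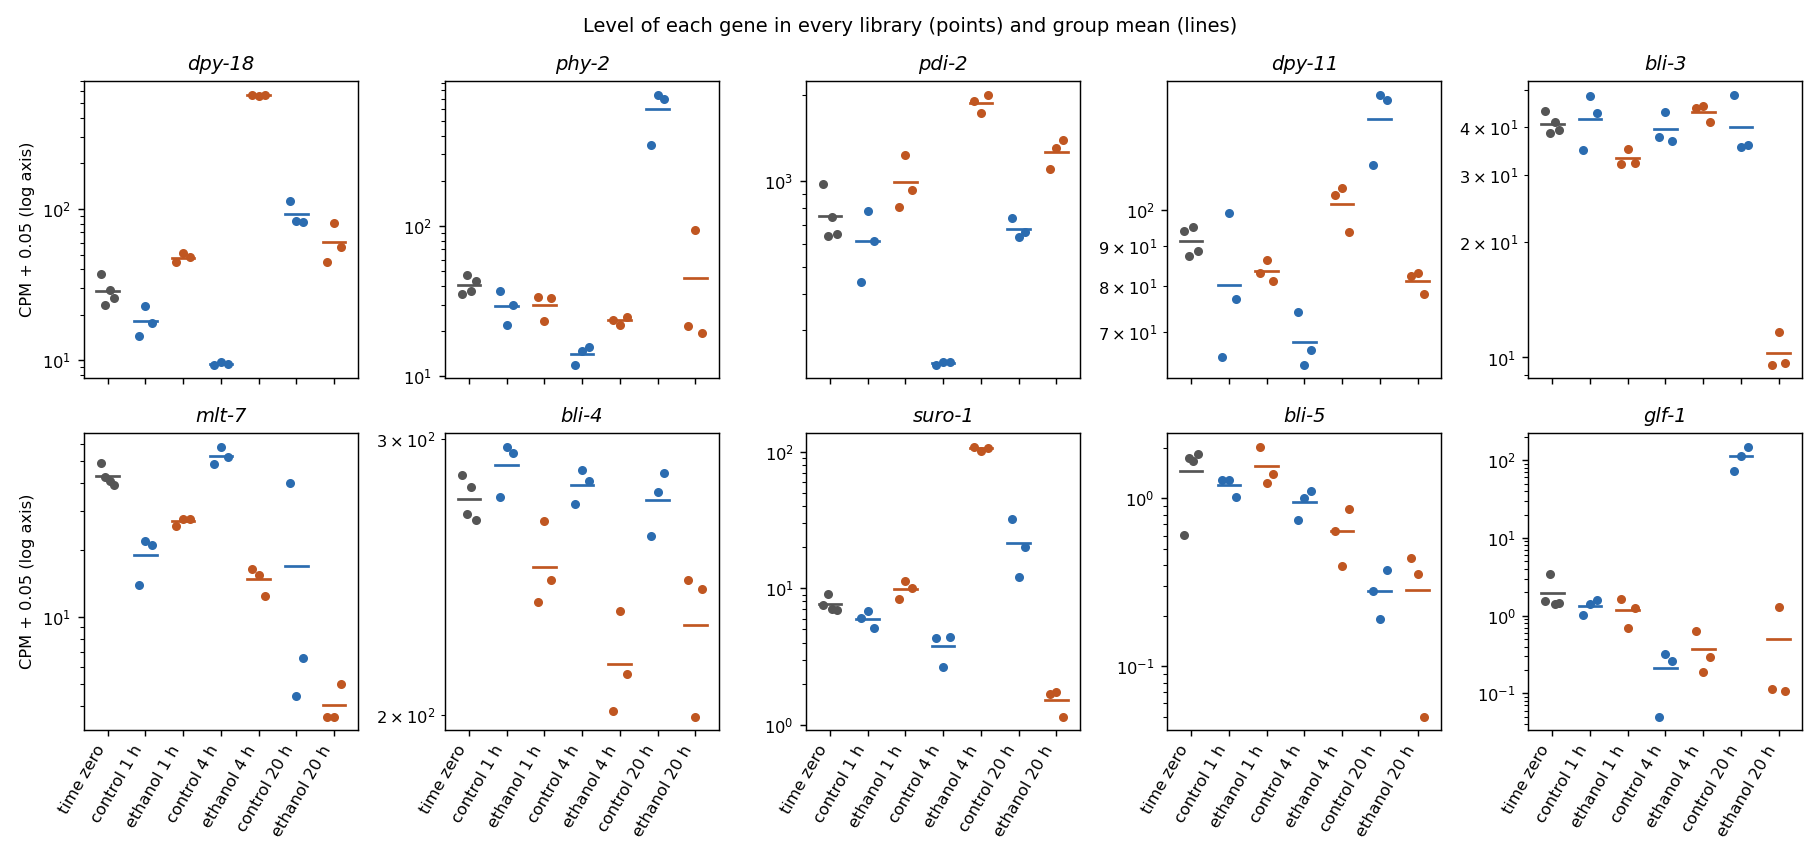
CPM of the 10 genes in every library on a log axis, with 0.05 added so that counts of 0 can be drawn. Points are libraries, lines are group means, grey is time zero, blue the 0% control and orange 5% ethanol. dpy-18 and suro-1 peak in ethanol at 4 h, phy-2 and glf-1 in the control at 20 h, and bli-3 is low in ethanol at 20 h.

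Relative to exon length, the transcripts of the catalytic subunits changed places. The choice of these genes was made knowing that they differ, so the following is a description without a test. dpy-18 made up 40.0% ± 8.0 (SD, n = 4) of the summed dpy-18 and phy-2 level per kilobase at time zero and 38.9% ± 3.22 (SD, n = 3) in the 4 h control. In ethanol it was 60.2% ± 6.31 at 1 h and 95.8% ± 0.226 at 4 h (SD, n = 3). In the 20 h control it was 23.4%, 9.46% and 9.96%, and in 20 h ethanol 66.2%, 44.9% and 73.1%. The make-up in 4 h ethanol was thus almost all dpy-18 and that of the 20 h control mostly phy-2. The summed level was 320.4 ± 3.15 CPM per kilobase in 4 h ethanol and 396.2 ± 117 in the 20 h control (SD, n = 3), beside 39.1 ± 1.52 at time zero (SD, n = 4).

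**Figure D3:**
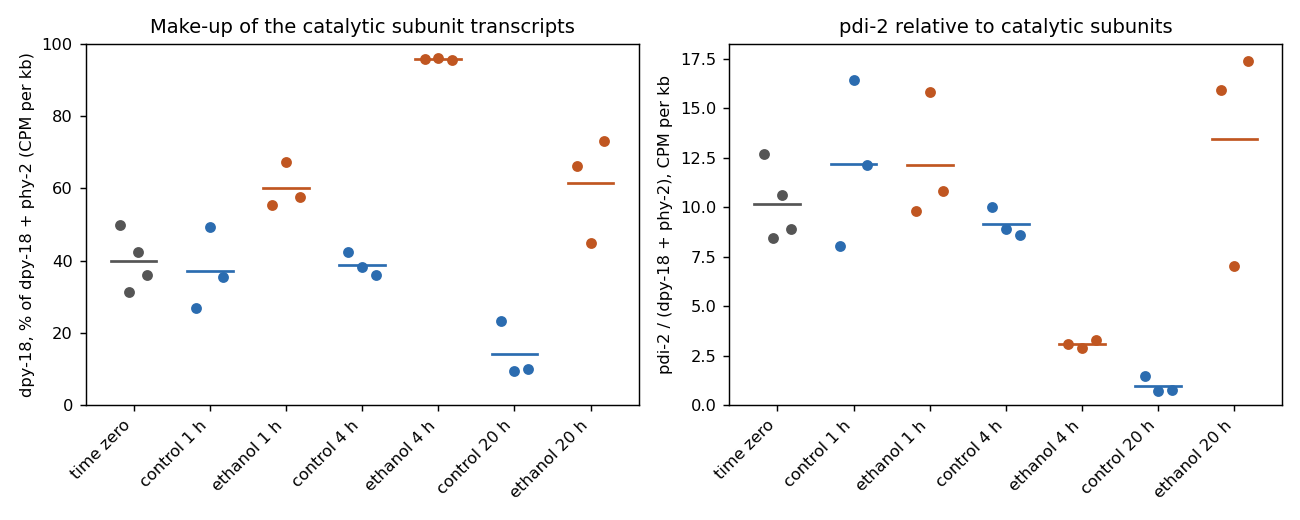
Left, dpy-18 as a percentage of the summed dpy-18 and phy-2 level (CPM per kilobase of exon) in every library. Right, the pdi-2 level divided by that sum. Points are libraries and lines group means; the 4 h ethanol libraries sit at 95.6% to 96.0% on the left and the 20 h controls at 0.701 to 1.49 on the right.

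pdi-2 encodes the disulfide isomerase subunit, which serves other secreted proteins as well. By group mean it was the most abundant of the 10 per kilobase in each of the 7 groups, although in the 20 h control its libraries overlapped those of phy-2. There it was above phy-2 in replicate 1 (390.6 against 201 CPM per kilobase). In replicates 2 and 3 it was below phy-2 (334.9 against 432.8 and 347.7 against 403.5). At 1 h the controls were at 441.3, 781.1 and 615.1 CPM and the ethanol libraries at 807.5, 1231 and 923.2 CPM. This rise passed (0.69 ± 0.20, adjusted p = 0.0362), but missed when control replicate 1 (adjusted p = 0.169), control replicate 3 (0.112) or ethanol replicate 2 (0.0718) was left out. It also missed when the fit held the 1 h libraries alone (0.315) and with a block on replicate number (0.0641). Over 33 alternatives its adjusted p ran from 0.000115 to 0.315. At 4 h the controls had dropped to 226.8, 231 and 231 CPM and the ethanol libraries had risen to 1893, 1728 and 2000 CPM. The difference was 3.03 ± 0.21, or 8.16-fold (adjusted p = 7.19e-10), and ethanol was also above time zero by 1.31 ± 0.18 (adjusted p = 6.27e-06). At 20 h pdi-2 was the sole gene of the 10 still higher in ethanol, at 1100, 1305 and 1381 CPM against 741.3, 635.7 and 660 CPM (0.89 ± 0.20, adjusted p = 0.000635).

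The ratio of pdi-2 to the summed catalytic subunits per kilobase was 10.1 ± 1.9 at time zero (SD, n = 4). It was 9.16 ± 0.76 in the 4 h control and 3.08 ± 0.21 in 4 h ethanol (SD, n = 3). In the 20 h controls it was 1.49, 0.701 and 0.776, and in 20 h ethanol 15.9, 7 and 17.4. The ratio was thus lowest where one of the catalytic subunit genes was most abundant.

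dpy-11 encodes a membrane-anchored thioredoxin-like protein of the epidermis, thought to act on disulfide bonds of cuticle proteins. Its changes were small and passed at 4 h and 20 h in opposite directions. At 4 h the controls were at 74.1, 63.6 and 66.4 CPM and the ethanol libraries at 104.2, 106.6 and 93.7 CPM (0.58 ± 0.14, adjusted p = 0.0025). At 20 h the controls were at 113.8, 139.8 and 137.4 CPM and the ethanol libraries at 82.4, 83.2 and 78.2 CPM (-0.68 ± 0.14, adjusted p = 0.000252). No library of one group lay within the range of the other at either time. Against time zero (87.3 to 95.0 CPM) the control fell at 4 h by 0.42 ± 0.13 (adjusted p = 0.0106) and rose at 20 h by 0.52 ± 0.13 (adjusted p = 0.00147). Ethanol did not pass against time zero at any of the 3 times.

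bli-3, the dual oxidase that supplies hydrogen peroxide for cross-linking, stayed level until late. It was at 38.5 to 44.0 CPM at time zero and did not pass in the control at any time. In ethanol it was at 32.0, 35.0 and 32.2 CPM at 1 h and 44.9, 45.5 and 41.2 CPM at 4 h, and neither difference from the control passed (-0.34 ± 0.15 and 0.16 ± 0.15). After 20 h the ethanol libraries were at 9.53, 11.6 and 9.60 CPM against 48.6, 35.5 and 35.9 CPM in the control. This fall of 1.97 ± 0.16, or 3.91-fold (adjusted p = 1.64e-09), passed under all 33 alternatives. The ethanol effect at 20 h was below that at 4 h by 2.12 ± 0.21 on the log2 scale (adjusted p = 2.08e-07). Epidermal markers were lower in the same ethanol libraries, with a summed level of 310.2 to 380.6 CPM against 583.5 to 1295 CPM and 6 of 10 genes lower. Their part in this result was not tested.

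mlt-7 encodes the heme peroxidase that uses this peroxide. It was lower in ethanol at 4 h. At time zero it was at 48.9, 42.2, 40.8 and 39.1 CPM, and in the 4 h controls at 48.3, 58.0 and 52.2 CPM. The 4 h ethanol libraries were at 16.4, 15.4 and 12.4 CPM, all below both other groups (-1.84 ± 0.49, 3.59-fold lower, adjusted p = 0.00661). At 20 h 1 library decided the result. Control replicate 1 was at 39.8 CPM and the other controls at 4.38 and 6.49 CPM, beside 3.52, 3.53 and 4.95 CPM in ethanol, so the groups overlapped. The log2 fold change was -2.07 ± 0.52 (adjusted p = 0.00223), and -0.43 without control replicate 1 (adjusted p = 0.13). Over 32 alternatives its adjusted p ran from 7.14e-05 to 0.13. The fall of the 20 h control from time zero was -1.34 ± 0.46 (adjusted p = 0.0184) with that library and -2.98 without it. That fall was no longer called when control replicate 2 (adjusted p = 0.0754) or 3 (0.0944) was left out. Control replicate 1 was also the 20 h library highest in summed epidermal markers, at 1295 CPM against 594.8 and 583.5 CPM.

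Among the processing genes, suro-1, which encodes a zinc carboxypeptidase first found through its effect on body rolling, moved most. Its level at time zero was 7.54, 9.06, 7.01 and 6.88 CPM. In the 4 h controls it was at 4.27, 2.61 and 4.36 CPM and in 4 h ethanol at 109.2, 101.1 and 107.5 CPM. The rise of 4.83 ± 0.30, or 28.4-fold (adjusted p = 1.47e-10), stood second to that of dpy-18 among the 10, and ethanol was 13.9-fold above time zero. At 20 h the direction was the opposite. The controls were at 32.0, 12 and 20.1 CPM, above time zero by 1.48 ± 0.24 (adjusted p = 2.12e-05), and the ethanol libraries were at 1.63, 1.69 and 1.09 CPM. Ethanol was lower than the control by 14.6-fold (-3.87 ± 0.31, adjusted p = 1.57e-09) and lower than time zero by 5.21-fold (-2.38 ± 0.29, adjusted p = 9.08e-07). Between 4 h and 20 h the ethanol effect on suro-1 thus changed by -8.69 ± 0.43 on the log2 scale (adjusted p = 2.22e-11). At 1 h the ethanol libraries (8.27 to 11.3 CPM) lay above the controls (5.03 to 6.78 CPM), a difference of 0.73 ± 0.27 that did not pass (adjusted p = 0.142).

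bli-4 encodes a subtilisin-like proprotein convertase that cleaves procollagens, and it was the steadiest of the 10. Its group means lay between 215.5 ± 16.3 (ethanol, 4 h) and 288.7 ± 11.5 CPM (control, 1 h; SD, n = 3). The control did not pass against time zero at any time. At 4 h ethanol was at 201, 233.1 and 212.2 CPM against 272.5, 286.5 and 281.9 CPM (-0.38 ± 0.11, 1.30-fold lower, adjusted p = 0.0101). That call was lost without ethanol replicate 1 (adjusted p = 0.0591) and with no filter on low counts (0.0633), in a range of 0.000128 to 0.0633. At 20 h ethanol was at 244, 199.4 and 240.8 CPM against 260.2, 277.4 and 285.6 CPM. This difference of -0.27 ± 0.11 passed as fitted (adjusted p = 0.0425) but missed in 24 of 33 alternatives, with adjusted p up to 0.573. Exons of bli-4 overlap those of mut-2 and K04F10.8 on the other strand, and the strand setting of the counts is not given in the sources used here.

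bli-5, whose product has Kunitz-type protease inhibitor domains, was near the limit of detection. Each group held 9 to 72 counts in sum, and the 20 h groups 9 (control) and 10 (ethanol). At time zero it was at 0.558, 1.68, 1.62 and 1.78 CPM, and in the 20 h controls at 0.229, 0.141 and 0.324 CPM (-2.59 ± 0.56, adjusted p = 0.000447). Ethanol did not pass against the control at any time, and at 20 h ± 2 SE covered -1.499 to 1.422, so a change smaller than that was not detectable at this depth. Its exons overlap those of cope-1 on the other strand, which makes such low counts uncertain.

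glf-1 encodes UDP-galactopyranose mutase, which makes the galactofuranose donor for surface sugars. It was hardly expressed until the 20 h control. At time zero it was at 1.49, 3.36, 1.35 and 1.39 CPM, and in the 4 h controls at 0, 0.274 and 0.211 CPM, 7 counts in sum. In the 20 h controls it was at 73.1, 113.8 and 149.3 CPM, 57.5-fold above time zero (5.85 ± 0.48, adjusted p = 1.88e-09). In 20 h ethanol it was at 0.0653, 1.23 and 0.0575 CPM, 18 counts in sum. These libraries lay far below all controls, and replicate 2 held most of their counts. The log2 fold change of -8.08 ± 0.63 (adjusted p = 1.88e-09) was the largest in size among the 10, and it ran from -10.63 without ethanol replicate 2 to -7.43 without ethanol replicate 3. Ethanol was also below time zero at 4 h (-2.55 ± 0.71, adjusted p = 0.00717) and 20 h (-2.23 ± 0.66, adjusted p = 0.00795). The value at 4 h was -3.30 without ethanol replicate 1. At 20 h it was -4.79 (27.6-fold lower) without ethanol replicate 2 and -1.65 (3.13-fold lower) without ethanol replicate 3. In both 1 h and 4 h libraries the difference from the control did not pass, and at 4 h ± 2 SE covered -1.35 to 3.09.

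Against time zero, the buffer without food moved the genes in its own sequence. In the 1 h control dpy-18 alone passed, lower by 0.66 ± 0.20 (adjusted p = 0.0359), where 10.8% of all tested genes were called (5.33% higher, 5.49% lower). Without time zero replicate 1 or 3, or control replicate 1 or 3, that call was lost, with adjusted p of 0.0637, 0.0707, 0.164 and 0.124, and over 33 alternatives it ran from 0.00642 to 0.164. In the 4 h control 6 of 10 were lower and 0 were higher, where 46.2% were called (22.9% higher, 23.3% lower). These were dpy-18, phy-2, pdi-2, dpy-11, suro-1 and glf-1, and the fall was 3.03-fold for dpy-18 and 3.28-fold for pdi-2. The call on dpy-11 was lost without control replicate 2 (adjusted p = 0.0563). In the 20 h control 5 were higher (dpy-18, phy-2, dpy-11, suro-1 and glf-1) and 2 were lower (mlt-7 and bli-5), where 55.1% were called (30.8% higher, 24.4% lower). All 5 genes that were higher at 20 h had been lower at 4 h. 

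Ethanol was set against the same time zero libraries. At 1 h dpy-18 was higher (0.73 ± 0.19, adjusted p = 0.0148) and 0 were lower, where 10.6% were called (7.13% higher, 3.47% lower), and this call was lost without time zero replicate 2 (adjusted p = 0.0578) or 4 (0.0517). At 4 h 3 were higher (dpy-18, suro-1 and pdi-2) and 4 were lower (bli-4, bli-5, mlt-7 and glf-1), where 39.2% were called (19.7% higher, 19.5% lower). Of these, bli-5 missed in 10 of 32 alternatives, bli-4 without ethanol replicate 1 (adjusted p = 0.0609) and mlt-7 without ethanol replicate 3 (0.0583). At 20 h dpy-18 and pdi-2 were higher and 6 were lower, where 53% were called (26.5% higher, 26.6% lower). These 6 were bli-3, bli-4, bli-5, mlt-7, suro-1 and glf-1, of which bli-4 missed in 10 of 33 alternatives. The fall of bli-5 (-2.63 ± 0.54) was -3.33 without ethanol replicate 1 and -1.99 without ethanol replicate 3.

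Embryo markers differed between the same 20 h groups. hch-1, the hatching enzyme gene of embryos near hatching, was at 107.3, 111.6 and 83.7 CPM in the 20 h controls and at 0, 0.23 and 0.173 CPM in 20 h ethanol. It had no counts at time zero. Of the 8 embryo markers listed, 5 could be tested, and 3 of these were lower in ethanol at 20 h and 0 higher. The summed level of the 8 was 198.2 to 290.8 CPM in the control and 163.2 to 199.5 CPM in ethanol. In control replicates 1 to 3 hch-1 alone gave 107.3 of 198.2, 111.6 of 290.8 and 83.7 of 248.2 CPM. Up to 4 of the 8 were at 0 in an ethanol library. The collagen genes dpy-17 and sqt-3, shown with their values known, were also lower in ethanol. dpy-17 was at 666.7, 538.5 and 556.6 CPM in the 20 h controls and 2.41, 3.99 and 2.36 CPM in ethanol, and sqt-3 at 1057, 311.3 and 349.2 against 0.848, 3.45 and 1.73 CPM. At 4 h hch-1 was near 0 in both groups (0 to 0.0816 CPM in ethanol, 0.0686 to 0.0871 CPM in the control). Of the 5 embryo markers tested 2 were lower in ethanol at 4 h (pes-10, -5.01 ± 0.53, and end-1, -2.55 ± 0.80) and 0 higher, and the sums of the list did not overlap (162 to 198.4 against 205 to 215.4 CPM).

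Other tissues differed at 20 h as well, where 25% of all tested genes were called higher and 28.1% lower. All 8 body wall muscle markers were lower in ethanol, with sums of 2098 to 2324 CPM against 6266 to 7320 CPM. Of 7 intestinal markers 4 were lower and 3 higher, with sums of 9512 to 21240 CPM against 33600 to 63820 CPM. Of 8 sperm markers 6 were higher and 0 lower, with sums of 55.1 to 79.8 CPM against 13.5 to 27.4 CPM. The 20 h falls of the enzyme genes thus came with lower sums of epidermal, muscle and intestinal markers. The embryo sums overlapped between the groups, and hch-1 made up a large part of them in the controls. The part of any of these tissues in the 20 h values was not tested.

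**Figure D4:**
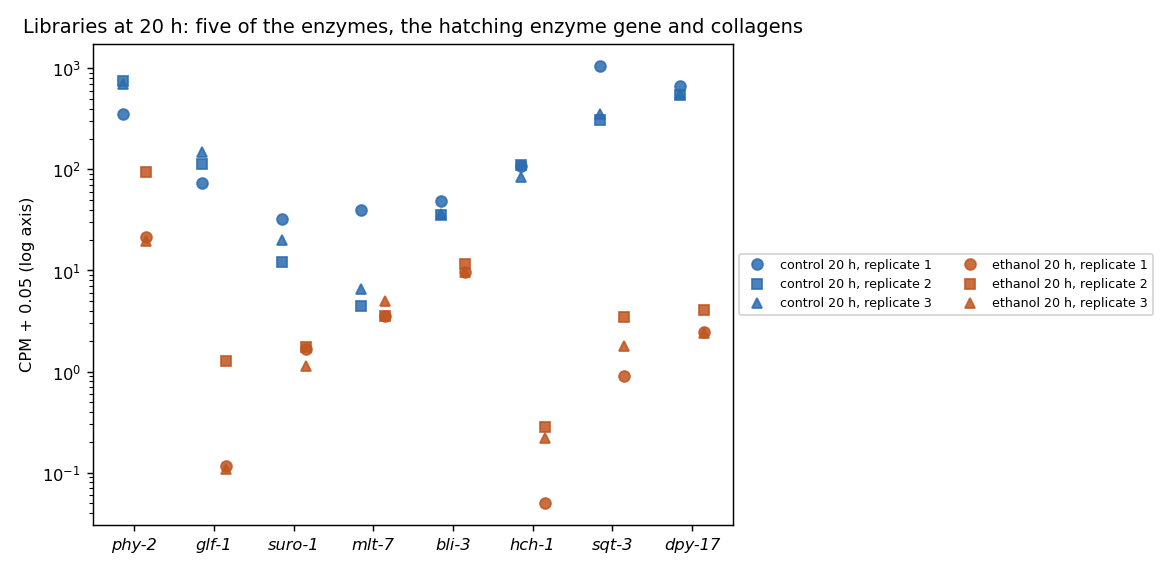
CPM at 20 h on a log axis (0.05 added) for 5 of the enzyme genes, the hatching enzyme gene hch-1 and the collagen genes sqt-3 and dpy-17. Blue is the 0% control, orange 5% ethanol, and the marker shape gives the replicate. For mlt-7 only control replicate 2 (4.38 CPM) lies within the ethanol range, with control replicates 1 (39.8 CPM) and 3 (6.49 CPM) above it. The groups are separated for each of glf-1, hch-1, sqt-3 and dpy-17.

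Other genes of the pathway were read from lists chosen with earlier results known, so their counts are descriptions. Over all tested genes 4.94% were called higher and 1.72% lower at 1 h. These shares were 17.1% and 13.4% at 4 h, and 25% and 28.1% at 20 h. Among other hydroxylase and disulfide genes 8 were tested, of which 1 was higher at 1 h (pdi-6, 0.96 ± 0.13), 3 were higher and 1 lower at 4 h, and 2 were higher and 1 lower at 20 h. pdi-6 and pdi-3, both disulfide isomerase genes, were higher at 4 h by 3.59 ± 0.14 and 1.54 ± 0.28. At 20 h pdi-6 was still higher (2.26 ± 0.14) and let-268, the lysyl hydroxylase gene for basement membrane collagen, was lower (-2.02 ± 0.15). pdi-6 was at 905.6, 921.9 and 894.7 CPM in 4 h ethanol against 82.0, 72.0 and 72.3 CPM in the control, which is the same direction as pdi-2. Of 5 other oxidase and peroxidase genes 0 passed at 1 h, 1 was higher and 3 lower at 4 h, and 3 were lower at 20 h. The peroxidase gene skpo-2 was higher at 4 h (5.66 ± 0.85) and lower at 20 h (-5.12 ± 0.79), as dpy-18 and suro-1 were. Its 20 h controls were at 40.9, 3.18 and 4.70 CPM, and without control replicate 1 the fall was -3.07, or 8.40-fold. skpo-3 was lower at 4 h (-2.11 ± 0.29), and doxa-1, the maturation factor of the dual oxidase, was lower at 20 h (-2.75 ± 0.48, and -1.88 without control replicate 1).

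Among 8 other convertases and procollagen or molting proteases 1 was higher at 1 h (dpy-31, 0.66 ± 0.17), 3 were lower at 4 h and 5 were lower at 20 h. For these and the next lists, 6.67%, 30.5% and 53.2% of all tested genes were called at 1, 4 and 20 h. The astacin genes dpy-31, whose product cleaves procollagen, and nas-37 were lower at 4 h by -1.38 ± 0.18 and -1.07 ± 0.17. At 20 h nas-37 was lower (-1.65 ± 0.17), and nas-38 (-1.95 ± 0.62) was lower with all libraries but at 0.08 without control replicate 1 (adjusted p = 0.874). Of 14 surface sugar genes 0 passed at 1 h, 1 was higher at 4 h (bus-17, 2.74 ± 0.45, named outside the rule), and at 20 h 2 were higher and 5 lower, among them bus-8 (-5.88 ± 0.48, and -5.27 without control replicate 1) and bus-12 (-4.19 ± 0.51). Of 6 collagen export genes 0 passed at 1 h, 2 were higher at 4 h (tfg-1, 1.38 ± 0.44, and sar-1, 0.43 ± 0.14) and sar-1 alone was higher at 20 h (0.92 ± 0.14). At 4 h both calls were lost without control replicate 2 (adjusted p = 0.0643 and 0.0864) or control replicate 3 (0.0625 and 0.0756). That of tfg-1 was also lost without control replicate 1 (0.0501) or ethanol replicate 3 (0.0539), and that of sar-1 without ethanol replicate 1 (0.0624) or 2 (0.0629).

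The cuticle collagens, substrates of these enzymes, were called in both directions at 4 h. Of 21 named collagen genes 0 passed at 1 h, and 2 were higher and 4 lower at 4 h. Their median log2 fold change at 4 h was -0.01. At that time 30.5% of all tested genes were called (17.1% higher, 13.4% lower), so the collagen count was near the share over all genes. dpy-8 was higher (2.61 ± 0.51) and sqt-3 lower (-1.72 ± 0.51), the latter not without ethanol replicate 2 (adjusted p = 0.0686). At 20 h 1 was higher and 10 were lower, where 53.2% of all tested genes were called (25% higher, 28.1% lower). The median of the 21 was -1.27. Among those lower were sqt-3 (-8.18 ± 0.61) and dpy-14 (-7.81 ± 0.55). Without ethanol replicate 2 these were -8.77 and -8.73, and sqt-3 was -7.39 without control replicate 1. Of 3 basement membrane collagen genes 0 passed at 1 h and 4 h, and let-2 was lower at 20 h (-1.31 ± 0.38).

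Per kilobase of exon, pdi-2 stood first and dpy-11 and bli-4 next at time zero, at 397.2 ± 81.7, 65.4 ± 2.73 and 36.3 ± 1.15 CPM (SD, n = 4). phy-2 followed at 23.5 ± 3.22, and mlt-7 (17 ± 1.72) and dpy-18 (15.6 ± 3.34) overlapped each other, as did bli-5 (1.89 ± 0.764) and glf-1 (1.13 ± 0.581) at the bottom of the order. Between them came bli-3 at 7.86 ± 0.471 and suro-1 at 3.46 ± 0.453. In 4 h ethanol dpy-18 stood next to pdi-2, at 306.8 ± 2.71 against 987.2 ± 72.2 CPM per kilobase (SD, n = 3), and no neighbours in the order overlapped. In the 20 h control phy-2 (345.8 ± 126) overlapped pdi-2 (357.7 ± 29.1), and glf-1 (66.7 ± 22.7) overlapped both dpy-11 and dpy-18.

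Likeness of course was measured as the root mean square difference of the 7 group means of log2 CPM, each centred on its own mean, over 9930 genes of at least 5 CPM on average. Nearest to dpy-18 were Y57A10A.23 (0.533), dnj-27 (0.754), tir-1 (0.892) and bus-18 (0.906). Nearest to phy-2 were F44E2.4 (0.231), F22B5.4 (0.339), T26C5.2 (0.344) and rga-2 (0.419), so phy-2 had closer neighbours than dpy-18. Among the 10 themselves, dpy-18 lay 1.11 from pdi-2, 1.20 from suro-1 and 2.06 from phy-2. phy-2 lay closest to glf-1 (1.22), and dpy-11 and bli-4 were the closest pair of all (0.335). The measure is also small for genes that change little, whatever their direction. With ethanol at 4 h dpy-11 was higher (0.58) and bli-4 lower (-0.38).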

How the data were processed

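The authors deposited whole-number read counts per gene, 1 column for each of 22 polyA libraries of whole worms (Kapa mRNA HyperPrep). Per the submitters' processing notes, the tools were STAR 2.7.9a, Subread 2.0.3 with featureCounts, fastp 0.23.2 and Trimmomatic 0.39, and the build was ce10. The annotation, the strand setting and how multi-mapped reads were handled: not given in the sources used here. Groups and replicate numbers came from the labels.

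filterByExpr (minimum count 10, minimum total 15) kept 15310 genes and 99.9% of counts. One edgeR 4.0.16 fit (R 4.3.3) held all 22 libraries, with TMM factors and a mean for each group. Robust quasi-likelihood F-tests were two-sided and adjusted by Benjamini-Hochberg over all tested genes. SE is the log2 fold change divided by the square root of F. CPM used TMM-scaled library sizes. Exon lengths and overlaps came from the WBcel235 annotation. Since its build differs, no coordinates are given, and promoter or protein sequences were not used here. Counts were also simulated from the mean of each gene over all 22 libraries, without differences between groups. Changes were planted in the 4 h ethanol libraries, only in genes of higher mean count. Of these, 52% of changes of 1 log2 unit and 97% of 2 were recovered (14812 genes tested). Genes with few counts throughout, such as bli-5, and low counts in single groups, as for glf-1, were not covered.

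The 10 genes, the lists and the markers were chosen with earlier results of these data known. All 10 are named. Of each other list the 2 largest changes that passed at 4 h and 20 h, with at least 10 counts in each group, were named. 5 list genes were not matched by symbol and were not analysed here. Alternatives were DESeq2 1.42.0, limma-voom (limma 3.58.1), other scaling and filters, a fit of the compared groups alone, a block on replicate number, a slope on exon length as a covariate, each library left out in turn (for the other named genes, chosen after seeing the data), and leaving out the 6 libraries with component scores above 10. No libraries were identical. Group mates differed by a chi-square of at least 2.005 for each degree of freedom.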

Additional observations from a re-analysis of the deposited data

Results flagged for a closer look

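At time zero 2 genes had 1 library far from the other 3: bli-5 (replicate 1 low at 0.558 CPM, gap 0.869 of the range) and glf-1 (replicate 2 high at 3.36 CPM, gap 0.930). Chance flags about 1 in 20 groups, and 10 genes were examined.

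The effect of ethanol differed between times, by edgeR's test of the difference itself, for 8 of the 10 genes. From 1 h to 4 h the log2 effect changed by 4.50 for dpy-18, 2.34 for pdi-2, 4.09 for suro-1 and -2.35 for mlt-7. From 4 h to 20 h it changed by -6.51 for dpy-18, -4.48 for phy-2, -2.14 for pdi-2, -1.26 for dpy-11, -2.12 for bli-3, -8.69 for suro-1 and -8.95 for glf-1. Between 1 h and 20 h it changed by -2.01 for dpy-18, -3.75 for phy-2, -0.74 for dpy-11, -1.62 for bli-3, -2.58 for mlt-7, -4.60 for suro-1 and -7.96 for glf-1. Such differences were called for 13.1%, 32.3% and 35.7% of all tested genes. Without ethanol replicate 2 at 20 h the last 2 changes were -5.60 and -4.88 for phy-2 and -11.5 and -10.51 for glf-1, and without ethanol replicate 3 they were -8.30 and -7.33 for glf-1. The glf-1 change from 4 h to 20 h was -8.19 without ethanol replicate 1 at 4 h, and the mlt-7 change between 1 h and 20 h was -0.94 without control replicate 1 at 20 h. bli-4 and bli-5 did not pass in any of these 3 tests.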

How the results depend on the processing

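Of 3934 values of single genes recomputed over 33 alternatives and 12 comparisons, 3768 kept direction and side of the threshold. Ethanol against control passed in each alternative that gave an adjusted p for dpy-18 at 1 h and 4 h. At 4 h it did so too for pdi-2, dpy-11, suro-1 and mlt-7. At 20 h it did so for phy-2, pdi-2, dpy-11, bli-3, suro-1 and glf-1. The count of genes called at 1 h was 2 for ethanol against control, 1 for the control against time zero and 1 for ethanol against time zero. These became 1, 0 and 0 with the replicate block, and 5, 3 and 3 with the slope on exon length. Only the groups compared gave 1 and 2 for the first and last, and without libraries scoring above 10 the last 2 were 4 and 3. With 1 library left out they ran from 1 to 3, 0 to 2 and 0 to 2. At 1 h the deviations of same-numbered control and ethanol libraries correlated for replicates 1 and 2 (0.603 and 0.621) but not for 3 (-0.0685). These correlations were -0.0618 to -0.000813 at 4 h and -0.36 to 0.185 at 20 h. Whether the replicate numbers paired the libraries at 1 h was thus not settled. The block moved no count at 4 h or 20 h by over 1.5 times.

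The mlt-7 effect at 20 h against that at 4 h (-0.23) turned to 1.25 without the libraries scoring above 10 and to 1.41 without control replicate 1 at 20 h, and with 1 library left out it ran from -0.68 to 1.41. phy-2 in ethanol at 20 h against time zero (0.14) turned to -0.99 without ethanol replicate 2, in a range of -0.99 to 0.50. The cause was not tested. In 27 further values with a library left out, and 26 under other alternatives, the sign changed where neither value passed. With library sizes alone the median over all genes at 20 h moved from -0.06 to 0.10. DESeq2 gave mlt-7 no adjusted p. Counts of 9 to 72 per group limit bli-5, and 7 to 18 in some groups limit glf-1.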
